A study of Mus musculus with 2 samples.

Results

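Cycling T lineage cells were the dividing cells among the T cells of popliteal lymph nodes (PLNs), the nodes behind the knee that drain the hindpaw and ankle, in male TNF transgenic (TNF-Tg) mice. A cell was taken as one of them when it held at least 200 detected genes, less than 0.0015 of its unique molecular identifiers (UMIs, 1 per captured mRNA molecule) in the B cell genes Cd79a, Cd79b and Ms4a1 together, at least 3 UMIs of the CD3 chains Cd3d, Cd3e and Cd3g together, and at least 5 UMIs of the cell cycle genes Top2a, Birc5, Ube2c, Mki67, Nusap1 and Pclaf together. In all, 124 of 16404 cells met these conditions, 79 of 8183 in the Advanced library and 45 of 8221 in the Early library. Because UMIs of these genes chose the cells, the levels of these genes and every gene that differed between cycling and non-cycling T cells are given as descriptions, without a test.

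The Advanced library came from TNF-Tg mice older than 8 months with late disease, and the Early library from TNF-Tg mice of 5 to 6 months with early ankle arthritis. Mice of both groups carry a human TNF transgene, from 1 transgenic line on a C57BL/6 background, and develop inflammatory-erosive arthritis, so both libraries are from diseased nodes, and no wild-type cells are included here. Each library was 1 pool of the PLNs of 3 mice. Nodes were minced and digested, nucleated live cells were sorted with the dyes Hoechst and Sytox Green, and droplet-based 3′ single-cell RNA sequencing (scRNAseq) was performed. With 1 library per group there is no replicate error, no test of the stages is possible, and age, disease stage and library cannot be told apart. The 95% intervals printed here cover counting error only.

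T cells divide at separate points of their life. In the thymus, precursors that have not yet assembled a complete receptor proliferate in bursts between rounds of gene rearrangement, which is carried out by the recombinase Rag1 and Rag2 and by Dntt, the template-independent DNA polymerase that adds bases at the joins. In lymph nodes, mature T cells are mostly quiescent and divide after they recognise antigen, and regulatory T cells, which depend on the transcription factor Foxp3, divide at a higher basal rate than other CD4 T cells. In dividing cells the genes of DNA replication peak in S phase, whereas those of chromosome condensation and the spindle peak in G2 and mitosis.

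The libraries held 83148059 UMIs in the Advanced and 67610110 UMIs in the Early group, with medians of 7837 (Advanced) and 6643 (Early) UMIs per cell. Of the cells, 1239 Advanced and 185 Early cells passed the T lineage gate, which left 1160 Advanced and 140 Early T cells below the cycle threshold as the non-cycling comparison. Across the libraries 20 cell barcodes were shared, and none of them belonged to a cycling T cell. The limit on B cell genes removed 11 Advanced and 0 Early cells that had otherwise passed as cycling T cells.

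The sum of the 6 cycle genes was at or near 0 in most T cells, and the other T cells spread over the whole range above. In the Advanced library 982 of 1239 T cells had none of these UMIs and 54 had 30 or more, and in the Early library 113 of 185 had none and 36 had 30 or more. Just inside the threshold, at sums of 5 to 9, lay 12 Advanced and 3 Early cells, and just outside it, at sums of 2 to 4, lay 35 Advanced and 12 Early cells. The highest sums were 509 UMIs in an Advanced and 330 UMIs in an Early cell. Sums of 10 to 29 UMIs were held by 13 Advanced and 6 Early cells, so no gap separated the low from the high sums. The plot of the sum by library uses bins that widen to the right, which adds to the height of the bin that begins at 100 UMIs.

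**Figure D1:**
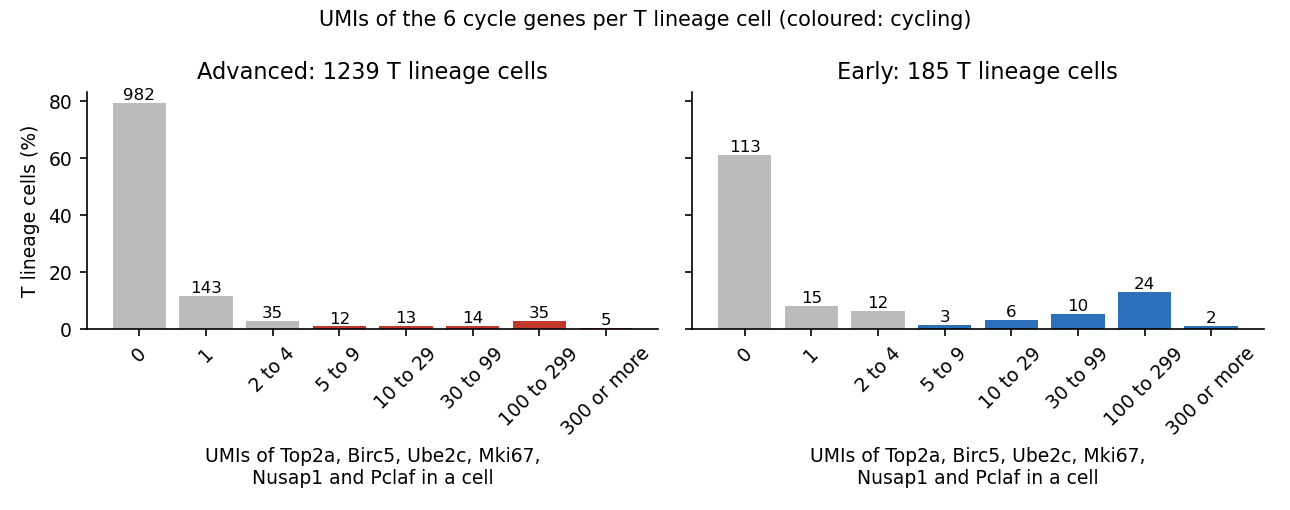
Share of T lineage cells (y axis, percent) by their UMIs of the 6 cycle genes (x axis, binned), Advanced on the left and Early on the right, with the number of cells above each bar and cells that met the cycling threshold in colour. Most T cells had no such UMI, and among cycling cells the fullest bin began at 100 UMIs, with 35 Advanced and 24 Early cells.

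Among the genes that chose the cells, Top2a, the topoisomerase that untangles replicated DNA, was the most widely held in the Advanced library. It had a median of 29 UMIs per cycling cell in the Advanced library, with UMIs in 76 of 79 cells, and of 23 UMIs in the Early library, with UMIs in 42 of 45 cells. Mki67, a coat protein of mitotic chromosomes, had medians of 14 (Advanced) and 10 (Early) UMIs, and Birc5, a subunit of the chromosomal passenger complex, medians of 11 UMIs in Advanced and 16 UMIs in Early cycling cells. The spindle protein gene Nusap1 had medians of 11 UMIs in Advanced and 9 UMIs in Early cells, and Ube2c, the ubiquitin-conjugating enzyme of the anaphase-promoting complex, a median of 7 UMIs in each. Pclaf, which binds the replication clamp, was the most widely held gene of the Early library, in 45 of 45 cells, and had medians of 14 UMIs in Advanced and 27 UMIs in Early cells.

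Most cycling cells also had UMIs of T cell receptor genes, which the rule did not use. UMIs of at least one T cell receptor constant gene (Trac, Trbc1, Trbc2 or Trdc) were present in 78 of 79 Advanced and 45 of 45 Early cycling cells, and 74 Advanced and 45 Early cells had 10 or more of them. Of the non-cycling T cells, which held fewer UMIs, 1096 of 1160 Advanced and 135 of 140 Early cells had 10 or more. The CD3 sum was near its own minimum, at 3 to 5 UMIs, in 8 of 79 Advanced and 0 of 45 Early cycling cells. In non-cycling cells it was so in 31 of 1160 Advanced and 4 of 140 Early cells.

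Cycling T cells were large in RNA content. They held a median of 32353 UMIs in the Advanced and 32824 UMIs in the Early library, against 10709 (Advanced) and 9032 (Early) UMIs in the non-cycling T cells of those libraries, and medians of 5017 (Advanced) and 4868 (Early) genes, against 2326 (Advanced) and 2304 (Early) genes. A total above 3 times the median of the library's T cells was found in 36 of 79 Advanced and 22 of 45 Early cycling cells, against 11 of 1160 Advanced and 2 of 140 Early non-cycling cells. More RNA in a dividing cell and 2 cells in a droplet cannot be told apart from the total, and no doublet was called or removed. UMIs of another lineage (10 or more of B cell genes, or set minimums of B cell precursor, NK, myeloid or plasmacytoid genes, chosen after the cells were seen) were present in 19 of 79 Advanced (24.1%) and 10 of 45 Early cycling cells (22.2%), against 47 of 1160 (4.05%) and 6 of 140 (4.29%) non-cycling cells. These minimums were counts per cell, which deeper cells meet more readily, and the part of depth in this contrast was not tested. In the Early library all 10 cycling cells were cells with B cell genes. In the Advanced library the cells with B cell genes numbered 11, those with the myeloid gene Lyz2 5, and those with B cell precursor, NK and plasmacytoid genes 2, 2 and 1. The part of these cells in the results below was not tested beyond the values given without them.

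The share of T cells in cycle was lower in the Advanced library. It was 6.38% (79 of 1239, exact 95% interval 5.08 to 7.88%) in the Advanced and 24.3% (45 of 185, 18.3 to 31.2%) in the Early library, a ratio of 0.262 (0.188 to 0.365). Leaving out the cells with UMIs of another lineage gave 5.12% (Advanced) and 20.7% (Early), a ratio of 0.247. Since deeper cells pass a UMI threshold more readily, every cell was also thinned to 4000 UMIs, which gave 4.10% (46 of 1121) in the Advanced and 16.8% (28 of 167) in the Early library. Among cells of 8000 to 20000 UMIs, 1.43% (11 of 770) cycled in the Advanced and 5.20% (4 of 77) in the Early library.

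Set against all cells of the library, the order was the opposite. Cycling T cells made up 0.965% of all Advanced and 0.547% of all Early cells, a ratio of 1.76 (1.23 to 2.54), with a T lineage of 1239 of 8183 Advanced against 185 of 8221 Early cells. Cycling cells of the B lineage, found with the same cycle threshold, made up 1.83% (97 of 5304) of the Advanced and 1.05% (79 of 7489) of the Early B lineage, a ratio of 1.73. The boundaries of the DNA dye gate in the sort, which can set the share of cells with more DNA, are not given in the sources used here.

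Each T cell was then placed in a state by its UMIs, in this order: precursor, with at least 2 UMIs of Rag1, Rag2, Dntt and Ptcra (the pre-T receptor alpha chain) together; Foxp3 positive; CD8, with Cd8a or Cd8b1 and no Cd4; CD4, with Cd4 and neither CD8 chain; both coreceptors; and neither. Precursors were the fullest state of the cycling cells in the Advanced library, with 32 of 79 cells (40.5%, 29.6 to 52.2%), against 66 of 1160 non-cycling cells (5.69%). In the Early library precursors were 14 of 45 cycling cells (31.1%, 18.2 to 46.7%), against 4.29% of non-cycling cells. Foxp3 positive cells made up 22.8% of cycling cells (18 of 79) and 12.6% of non-cycling cells in the Advanced library, and 35.6% (16 of 45) and 33.6% in the Early library. CD8 cells, the majority of non-cycling Advanced T cells at 52.2%, were 12.7% of the cycling cells (10 of 79), and in the Early library they were 11.1% of cycling (5 of 45) and 28.6% of non-cycling cells. CD4 cells made up 9 Advanced and 4 Early cycling cells, cells with both coreceptors 4 (Advanced) and 1 (Early), and cells with neither 6 (Advanced) and 5 (Early).

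The excess of precursors held at equal depth, and that of Foxp3 positive cells did not. With every cell thinned to 4000 UMIs, precursors were 36.4% of cycling and 3.57% of non-cycling cells in the Advanced library, and 24.4% and 3.03% in the Early library. Foxp3 positive cells were then 9.09% of cycling and 9.97% of non-cycling cells in the Advanced library, and 15.6% and 25.8% in the Early library.

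Within each state, the cycling share was highest among precursors. In the Advanced library 32 of 98 precursors cycled (32.7%, 23.5 to 42.9%), against 14 of 20 in the Early library (70.0%, 45.7 to 88.1%), a ratio of 0.467 (0.312 to 0.699). Of Foxp3 positive cells 10.98% cycled in the Advanced (18 of 164) and 25.4% in the Early library (16 of 63), a ratio of 0.432 (0.235 to 0.793). Of CD8 cells 1.63% cycled in the Advanced (10 of 615) and 11.1% in the Early library (5 of 45), a ratio of 0.146 (0.0523 to 0.410). The share was thus lower in Advanced cells of each of these states. Of CD4 cells 5.59% cycled in the Advanced (9 of 161) and 12.5% in the Early library (4 of 32), a ratio of 0.447 whose interval of 0.147 to 1.36 includes 1. Given the mix of states of the Early library, the Advanced share would have been 9.21%, against 24.3%, which leaves a ratio of 0.379.

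**Figure D2:**
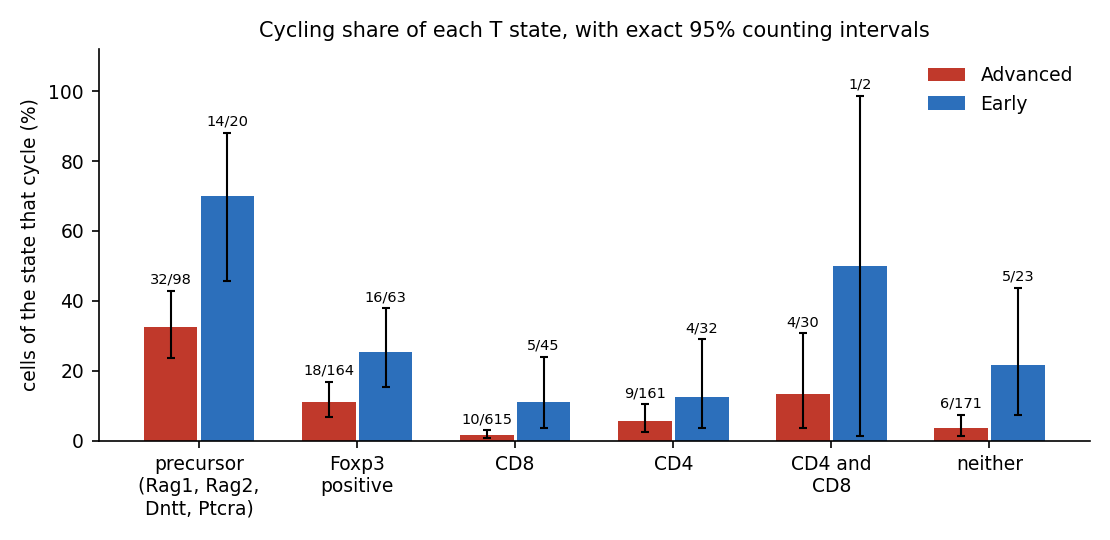
Cycling cells as a percent of all T cells of a state (y axis), by state (x axis), with Advanced bars left of Early bars, exact 95% counting intervals as error bars, and cycling over total cells above each bar. Precursors had the highest shares among the states with over 2 cells, 32 of 98 in the Advanced and 14 of 20 in the Early library, and CD8 cells of the Advanced library the lowest, 10 of 615.

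Gene by gene, Dntt was present in 34 of 79 Advanced cycling cells (43.0%) and 14 of 45 Early cycling cells (31.1%), against 8.19% (Advanced) and 4.29% (Early) of non-cycling T cells and 1.84% (Advanced) and 0.175% (Early) of B cells, which show the level that free RNA and B cell precursors leave in other cells. At 4000 UMIs per cell the shares were 40.3% of cycling, 5.12% of non-cycling and 1.01% of B cells in the Advanced library, and 28.9%, 3.03% and 0.109% in the Early library. Rag1 was present in 22.8% of Advanced and 17.8% of Early cycling cells, against 4.40% (Advanced) and 4.29% (Early) of non-cycling cells, and at 4000 UMIs in 10.4% (Advanced) and 11.1% (Early), against 2.29% (Advanced) and 3.03% (Early). Trdc, the constant region of the delta chain, was present in 43.0% of Advanced and 33.3% of Early cycling cells, against 8.62% (Advanced) and 7.14% (Early) of non-cycling cells. Trac, the alpha chain constant region, went the other way, in 63.3% (Advanced) and 80.0% (Early) of cycling cells, against 89.1% (Advanced) and 92.1% (Early) of non-cycling cells, although the cycling cells were the deeper ones.

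The coreceptors and the receptor for interleukin-2 depended on depth or stage. Cd8a was present in 26.6% of Advanced and 24.4% of Early cycling cells, against 51.7% of Advanced and 42 of 140 Early non-cycling cells and 2.59% (Advanced) and 0.324% (Early) of B cells, and at 4000 UMIs in 13.0% (Advanced) and 13.3% (Early), against 36.2% (Advanced) and 19.7% (Early). Cd4 was present in 45.6% of cycling and 23.5% of non-cycling cells in the Advanced library, and in 42.2% and 41.4% in the Early library. At 4000 UMIs Cd4 was in 10.4% of cycling and 14.3% of non-cycling cells in the Advanced library, and in 15.6% and 31.8% in the Early library, so its higher share in Advanced cycling cells did not hold at equal depth. Il2ra, the alpha chain of that receptor, was present at 4000 UMIs in 22.1% of cycling and 8.23% of non-cycling cells in the Advanced library, against 15.6% and 26.5% in the Early library.

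The cycling precursors had the genes of receptor assembly at an early point. Dntt ranged from 0 to 87 UMIs per cell around a median of 30.5 in the 32 Advanced cells, with UMIs in 31 of them, and from 2 to 55 UMIs around a median of 20 in the 14 Early cells. Rag1 was found in 16 of 32 Advanced and 8 of 14 Early cells, Rag2 in 7 (Advanced) and 7 (Early), and Ptcra in 13 (Advanced) and 6 (Early). Trbc1 and Trbc2, the constant regions of the beta chain, were found in 29 and 32 of the 32 Advanced and in 13 and 14 of the 14 Early cells, at medians of 34.5 and 44 UMIs in Advanced and of 47.5 and 44 UMIs in Early cells. The alpha chain was mostly missing: Trac was at 0 in 22 of 32 Advanced and 8 of 14 Early cells, and 10 or more UMIs of it were found in 3 (Advanced) and 1 (Early). Trdc, which lies inside the alpha locus and is lost when that locus rearranges, was found in 30 of 32 Advanced cells at a median of 7.5 UMIs and in 11 of 14 Early cells at a median of 5.5 UMIs. UMIs of Tcrg-C1, a constant region of the gamma chain that shares nearly identical stretches with Tcrg-C2 so that the copies are uncertain, were found in 19 Advanced and 5 Early cells.

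In coreceptor terms the precursors fell into several kinds. No Cd4, Cd8a or Cd8b1 UMI was found in 20 of 32 Advanced and 5 of 14 Early cells, CD8 UMIs were found in 10 (Advanced) and 9 (Early), and CD4 and CD8 UMIs together in 5 (Advanced) and 3 (Early). Of the cells without coreceptors, 15 Advanced and 4 Early cells held Il2ra, the CD25 gene, which in the thymus marks the stages in which beta chain rearrangement takes place. Kit, the stem cell factor receptor of the earliest thymocytes, was found in 15 Advanced and 4 Early cells, and Gata3, a transcription factor needed from the earliest T cell stages, in 26 (Advanced) and 10 (Early). Cd5, whose level follows signals through the receptor, was found in 7 Advanced and 6 Early cells, and Foxp3 in none of either library. Of these precursors 6 Advanced and 3 Early cells held UMIs of another lineage, nearly all of them B cell genes (5 Advanced and 3 Early cells).

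The Foxp3 positive cycling cells had the genes of finished T cells. Foxp3 ranged from 1 to 15 UMIs with a median of 5 in the 18 Advanced cells, and from 2 to 12 UMIs with a median of 4 in the 16 Early cells. Trac was found in 18 of 18 Advanced cells, at 2 to 42 UMIs with a median of 20.5, and in 16 of 16 Early cells, at 4 to 64 UMIs with a median of 16. Cd4 was found in 16 Advanced and 11 Early cells, Il2ra in 7 (Advanced) and 11 (Early), and Cd5 in 16 (Advanced) and 16 (Early), whereas Trdc was found in none and Dntt in 1 (Advanced) and 0 (Early). Cells with at least 2 UMIs of Rag1, Rag2, Dntt and Ptcra were placed among precursors first, so the near absence of Dntt follows from the rule. The range of Trac in the Foxp3 positive cells overlapped that of the precursors, but its zeros did not recur. Cells with UMIs of another lineage numbered 4 of 18 Advanced and 5 of 16 Early.

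Among the cells with neither coreceptor, 3 of 6 Advanced and 3 of 5 Early cells held 20 or more Trdc UMIs. Some precursors did so too, with highest values of 55 UMIs in an Advanced and 21 UMIs in an Early precursor. Trdc in the cells with neither coreceptor ranged from 0 to 92 UMIs around a median of 27.5 in the Advanced and from 0 to 122 around a median of 32 in the Early cells. The medians of the precursors were 7.5 UMIs in the Advanced and 5.5 UMIs in the Early library.

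**Figure D3:**
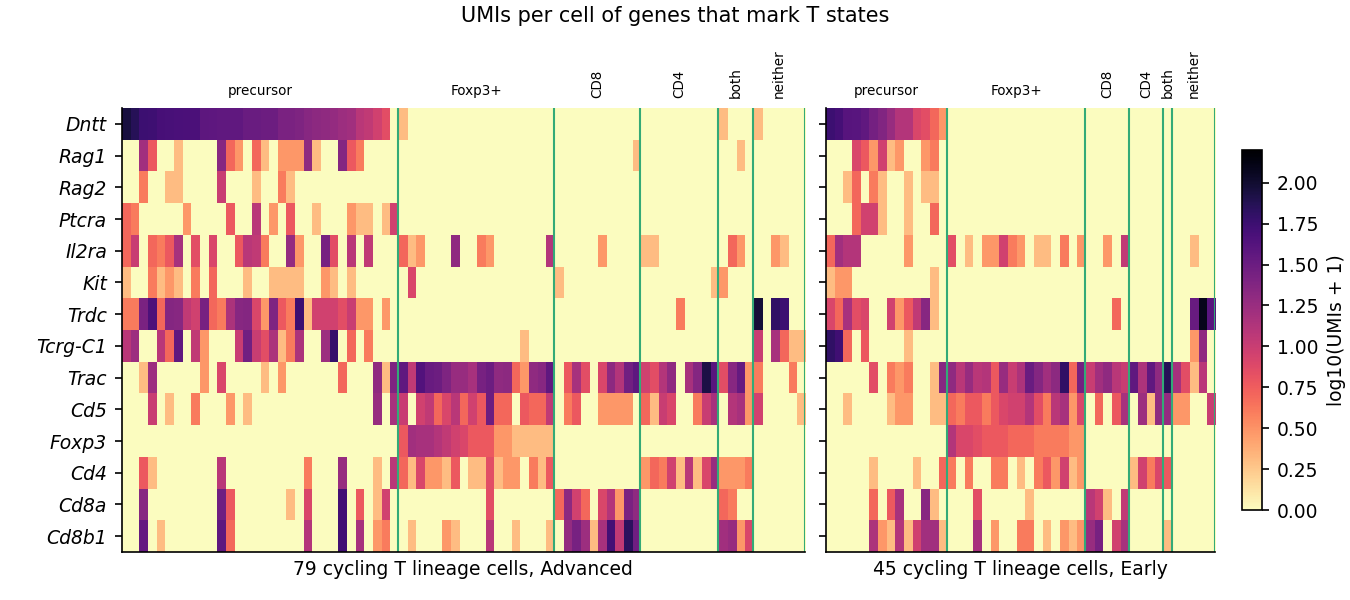
UMIs of 14 state genes (rows) in each cycling T lineage cell (columns, 79 Advanced on the left and 45 Early on the right), as log10 of UMIs plus 1, with cells grouped by state and ordered within a state by Dntt and Foxp3. Dntt and Trdc fill most of the precursor block, Tcrg-C1 is present in 19 of its 32 Advanced and 5 of its 14 Early cells, and Trac is at 0 in 22 of 32 Advanced and 8 of 14 Early cells, and Trac, Cd5 and Cd4 fill the Foxp3 block.

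Set side by side, cycling precursors and Foxp3 positive cycling cells were unlike in many genes, and since the states were chosen from the same cells this is a description. A size rule was used here and below: a gene was past 2-fold when it had at least 20 CPM (UMIs per 1000000 UMIs of the group) in the higher group, a UMI in at least 10% of its cells, and a ratio of summed CPM of 2 or more in either direction. Ratios against a group with no UMI were computed against a floor of 3 counts per group and are lower bounds. Of 5174 genes measured in both libraries, 292 (5.64%) were past 2-fold higher and 411 (7.94%) past 2-fold lower in precursors in both.

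Higher in precursors were Trdc, at 369.9 CPM against 0 in Advanced cells (at least 87.1-fold) and 183.9 CPM against 0 in Early cells (at least 37.4-fold), and Hes1, the transcriptional target of Notch signalling that T cell commitment needs, at 423 against 1.42 CPM in the Advanced library and 203 against 1.64 CPM in the Early library, where the Foxp3 values were 1 UMI each. With them stood Gzma, Sox4, Arpp21, Myl10, the gamma chain genes Tcrg-C1 and Tcrg-C2, Dgkeos, Gm4632, Aqp11 and the mast cell protease gene Cpa3. Sox4 and Arpp21 are genes of immature lymphocytes, and Gzma codes for a granule protease better known from killer cells. Among the genes lower in precursors were S100a6, at 59.7 against 1409 CPM in Advanced and 6.49 against 2078 CPM in Early cells, and the intermediate filament gene Vim, at 158 against 3150 CPM in Advanced and 95.2 against 2770 CPM in Early cells. Others were Lgals3, Klrg1, S1pr1, Lmna, Mt1, Icos, Itgb7, Tnfrsf9, Ahnak and S100a10, a set that includes the egress receptor S1pr1, the gut-homing integrin chain Itgb7 and the costimulatory receptors Icos and Tnfrsf9.

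Within the Foxp3 positive state, cycling cells had lower levels of most regulatory T cell genes than non-cycling cells. Of 15 list genes measured in each library, 9 were past 2-fold lower and 1 was past 2-fold higher in the Advanced library, and the counts were again 9 and 1 in the Early library, with median log2 ratios of −1.19 in Advanced and −1.24 in Early cells. Over all genes of the same comparison 12.9% were past 2-fold lower and 14.9% higher in the Advanced library, and 17.8% lower and 19.2% higher in the Early library, with medians of 0.07 in Advanced and 0.04 in Early cells. Tnfrsf18, which codes for the costimulatory receptor GITR, had a ratio of 0.363 in Advanced and 0.471 in Early cells, the folate receptor family gene Izumo1r 0.266 in Advanced and 0.231 in Early cells, and Il2ra 0.317 in Advanced and 0.197 in Early cells. The inhibitory receptor gene Ctla4 had ratios of 0.521 in Advanced and 0.422 in Early cells, and Ikzf2, which codes for the transcription factor Helios, was at 518 against 729 CPM in Advanced and 545 against 1045 CPM in Early cells. Klrg1, an inhibitory lectin receptor of terminally differentiated cells, was the gene on the higher side, at ratios of 2.37 in Advanced and 2.96 in Early cells. A deeper cell enters this state more readily, on 1 Foxp3 UMI, and the part of depth in these ratios was not tested.

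In cycling against non-cycling T cells, the number of genes past 2-fold was large. Of 5605 genes measured in the Advanced library, 1157 (20.6%) were higher and 272 (4.85%) lower in cycling cells, and of 5653 genes in the Early library, 835 (14.8%) were higher and 562 (9.94%) lower. In both libraries at once 687 of 5241 genes (13.1%) were higher and 185 (3.53%) lower. These are the shares against which the lists below are read. The median log2 ratio over all genes was 0.39 in the Advanced and 0.13 in the Early library, and after removal of the ribosomal protein, mitochondrial and immunoglobulin genes from the totals it was −0.01 and −0.12. With those totals 824 genes were higher and 692 lower in the Advanced library, 774 and 1080 in the Early library, and 573 and 434 in both, so the balance of higher and lower genes depends in part on the scaling. The genes left out held 33.0% of the UMIs of cycling and 47.4% of those of non-cycling cells in the Advanced library, and 34.3% of those of cycling and 41.5% of those of non-cycling cells in the Early library. With all genes in the totals and non-cycling cells weighted to the mix of states of the cycling cells, the balance moved as well. Then 645 genes were higher and 316 lower in the Advanced library, and 781 and 846 in the Early library.

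**Figure D4:**
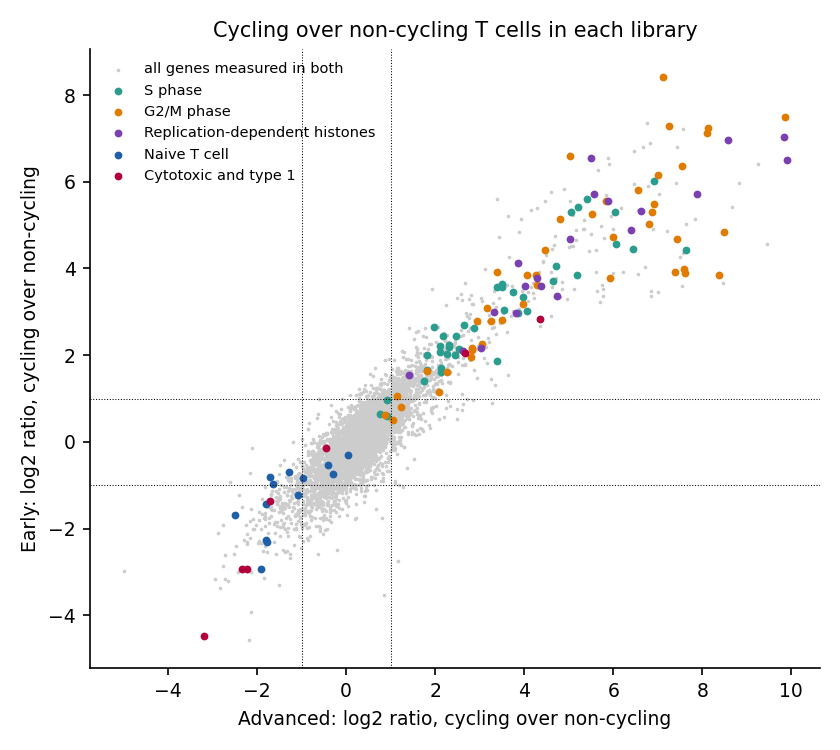
Log2 ratio of summed CPM in cycling over non-cycling T cells in the Advanced library (x axis) and the Early library (y axis), 1 point per gene measured in both, with members of 5 gene lists in colour and dotted lines at 2-fold. Histone, S phase and G2/M phase genes lie at the upper right and most naive T cell genes at the lower left, outside or near the 2-fold lines.

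The cell cycle lists were higher almost as a whole, which the choice of cells made likely. Of the S phase list, with the genes of the rule left out, 37 of 40 measured genes were higher in the Advanced and 39 of 42 in the Early library, with median log2 ratios of 3.12 in Advanced and 2.84 in Early cells. Of the G2/M phase list 45 of 46 in Advanced and 41 of 44 in Early cells were higher, with medians of 5.03 in Advanced and 3.91 in Early cells, and none of either list was lower. The replication-dependent histone genes, expressed when DNA is copied, were higher in 20 of 20 in both libraries, with medians of 4.88 in Advanced and 4.40 in Early cells. Many of these histone genes are near-identical copies, so the value of any single one is uncertain. The histone gene Hist1h3b had 599 UMIs in Advanced and 318 UMIs in Early cycling cells against 0 in the non-cycling cells of either library, at least 952-fold and at least 91.4-fold higher, and the linker histone gene Hist1h1b had ratios of 237 in Advanced and 52.6 in Early cells. Hist1h3c, Hist1h2ab and Hist1h2af stood beside them among the 12 leading genes.

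The other leading genes were those of replication control and mitosis. E2f8, an E2F repressor that shuts off S phase genes, had 126 UMIs in Advanced and 75 UMIs in Early cycling cells against 0 in non-cycling cells (at least 200-fold and at least 21.5-fold higher). Hmmr, a spindle-associated protein, was at 142 against 0.152 CPM in the Advanced library, a ratio of 932 (256 to 7724) that rests on 2 UMIs in non-cycling cells. Ccnb2, a B-type cyclin that starts mitosis, was at 210.5 against 0.760 CPM in the Advanced library, a ratio of 277 (149.5 to 581), and at 195 against 1.39 CPM in the Early library, where non-cycling cells held 2 UMIs. Aurkb, the kinase of the chromosomal passenger complex, had a ratio of 281 (119 to 873) in the Advanced library. Esco2, which ties sister chromatids together, Kif4, a motor of the mitotic midzone, and Aspm, a spindle pole protein, completed the 12.

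The regulators upstream of these genes were higher too. Of the E2F, Myb and FoxM1 list, 10 of 11 measured genes were higher in each library, among them Foxm1, the activator of mitotic genes, at ratios of 48.7 in Advanced and 15.1 (3.88 to 129, from 2 UMIs in non-cycling cells) in Early cells. Of the cyclins and their kinases 16 of 18 were higher in the Advanced and 15 of 17 in the Early library. The D-type cyclins stood apart from the rest: Ccnd3 had ratios of 1.37 in Advanced and 1.38 in Early cells, and Ccnd2 of 0.574 in Advanced and 0.390 in Early cells, while their kinase gene Cdk6 had ratios of 6.06 in Advanced and 2.14 in Early cells and Ccne2, the cyclin of the entry to S phase, 66.0 in Advanced and 39.2 (10.5 to 329, from 2 UMIs in non-cycling cells) in Early cells. All 15 measured genes of replication licensing were higher in the Advanced library and 13 of 14 in the Early library, for example Mcm5, a subunit of the replicative helicase, at 10.5 in Advanced and 11.9 in Early cells. Of nucleotide synthesis 17 of 20 in Advanced and 15 of 19 in Early cells were higher, led by Rrm2, the regulated subunit of ribonucleotide reductase, at 122 in Advanced and 64.5 in Early cells. Chromatin genes were higher in 23 of 23 in Advanced and 21 of 23 in Early cells, and Hmgb2, a DNA-bending protein that is by level the first of the G2/M list, was at 4387 against 264 CPM in the Advanced and 4810 against 336 CPM in the Early library.

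The promoters of the G2/M genes are shown because these genes moved together and are known to be read through a shared pair of elements. The cell cycle homology region (CHR), with the core TTTGAA, is bound by the MuvB complex, and CCAAT boxes by NF-Y. Windows of 250 bases before to 50 bases after the start were taken from RefSeq (build GRCm38.p6), and each motif was searched on both strands. Of 42 G2/M list genes with a window, 30 (71.4%) held the CHR core, 33 (78.6%) a CCAAT and 23 (54.8%) both, and of all 27025 genes with a window 20.2% held the CHR core, 41.1% a CCAAT and 7.97% both. An E2F-type motif (TTTGGCGC, TTTCCCGC or TTTCGCGC) was in 3 of the 42 (7.14%), against 2.12% of all. Matches of different motifs among these overlapped in 1 list gene. Only 31 of 43 S phase genes had a window, so the shares of that list are uncertain. Of these 31 genes 6 (19.4%) held the CHR core, 22 (71.0%) a CCAAT and 12 (38.7%) an E2F-type motif. A CCAAT was thus common in both lists, and the E2F-type motif had its larger share in the S phase list. The matches describe letters in a window, not bound sites. The 4 G2/M genes with the highest level in Advanced cycling cells that held both motifs are printed as the 150 bases before the start, in the direction of transcription, with the motif matches in capitals: Hmgb2 (chr8:57511693-57511842, plus strand), Cks1b, a subunit of the cyclin-dependent kinases (chr3:89418292-89418441, minus strand), Cdk1, the kinase of mitotic entry (chr10:69352913-69353062, minus strand), and Kif11, the motor that separates the spindle poles (chr19:37376232-37376381, plus strand).
Hmgb2: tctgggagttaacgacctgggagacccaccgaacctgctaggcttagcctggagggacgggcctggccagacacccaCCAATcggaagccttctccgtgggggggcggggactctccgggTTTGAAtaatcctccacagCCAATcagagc
Cks1b: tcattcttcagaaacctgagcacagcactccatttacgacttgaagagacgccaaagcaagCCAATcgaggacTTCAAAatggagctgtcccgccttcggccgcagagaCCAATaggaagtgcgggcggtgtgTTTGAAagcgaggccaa
Cdk1: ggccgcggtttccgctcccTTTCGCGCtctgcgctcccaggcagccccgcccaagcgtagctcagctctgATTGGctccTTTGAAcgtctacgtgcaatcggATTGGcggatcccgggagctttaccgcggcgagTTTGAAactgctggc
Kif11: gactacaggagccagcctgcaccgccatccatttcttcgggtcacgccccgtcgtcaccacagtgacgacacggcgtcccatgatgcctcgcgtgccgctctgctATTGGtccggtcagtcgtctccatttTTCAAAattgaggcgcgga

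The levels of these genes were close in the libraries. Cks1b was at 268 CPM in Advanced and 268 CPM in Early cycling cells, against 12.1 (Advanced) and 12.5 (Early) CPM in non-cycling cells. Cdk1 was at 211 (Advanced) and 236 (Early) CPM, against 1.52 (Advanced) and 0.695 (Early) CPM, and Kif11 at 186 (Advanced) and 149 (Early) CPM, against 1.44 (Advanced) and 2.08 (Early) CPM. In Cdk1, an E2F-type match lay upstream of the CHR and CCAAT matches.

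Genes that hold T cells out of cycle were split. Of the list of cycle inhibitors and quiescence genes, 4 of 17 were higher and 7 lower in the Advanced library, and 3 of 16 higher and 7 lower in the Early library. Lower in both were the antiproliferative genes Btg1, at ratios of 0.255 in Advanced and 0.197 in Early cells, and Btg2, at 0.471 in Advanced and 0.323 in Early cells, as well as Pik3ip1, a negative regulator of PI3 kinase, at 0.268 in Advanced and 0.200 in Early cells, and the glucocorticoid-induced Tsc22d3, at 0.295 in Advanced and 0.354 in Early cells. Higher in both were Cdkn2c, an inhibitor of Cdk4 and Cdk6, at 6.19 in Advanced and 5.50 in Early cells, and Rbl1, the pocket protein p107, which is itself an E2F target, at 4.09 in Advanced and 2.90 in Early cells. Cdkn1b, which codes for the inhibitor p27, had ratios of 0.644 in Advanced and 0.388 in Early cells, and Cdkn2d of 1.80 in Advanced and 2.59 in Early cells. Cdkn1a, which codes for the p53 target p21, was at 27.2 against 4.94 CPM in the Advanced library, a ratio of 5.50, and at 9.58 against 4.86 CPM in the Early library, below the level minimum. With non-cycling cells weighted to the mix of states of the cycling cells, the Advanced ratio of Cdkn1a was 0.999. Within the Foxp3 positive state the ratios of Cdkn1b were 0.282 in Advanced and 0.214 in Early cells.

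Among the lower genes were genes of naive and of cytotoxic T cells. No gene of the naive T cell list was higher, and 9 of 13 were lower in the Advanced and 6 of 13 in the Early library, with median log2 ratios of −1.65 in Advanced and −0.96 in Early cells. Examples were Ccr7, the receptor that brings T cells into lymph nodes, at 0.291 in Advanced and 0.202 in Early cells, Il7r, the receptor for the survival cytokine interleukin-7, at 0.264 in Advanced and 0.131 in Early cells, and the transcription factor gene Lef1, at 0.287 in Advanced and 0.370 in Early cells. Of the cytotoxic and type 1 list 8 of 11 were lower in the Advanced and 4 of 7 in the Early library. Ccl5, a chemokine of memory CD8 T cells and NK cells, was at 216 against 1989 CPM in Advanced and 22.8 against 509 CPM in Early cells, at ratios of 0.109 in Advanced and 0.0447 in Early cells, and Klrd1, the CD94 lectin receptor, had ratios of 0.214 in Advanced and 0.132 in Early cells.

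The members of that list that were higher were Gzma, at 20.6 in Advanced and 7.16 in Early cells, and Klrg1, at 6.38 in Advanced and 4.14 in Early cells, of which Gzma ranked higher in cycling precursors and Klrg1 in Foxp3 positive cycling cells. The other genes among the 12 leading lower ones were Tdrp (0.0312 in the Advanced and 0.127 in the Early library), Txk, a Tec family kinase of T cells (0.147 in Advanced and 0.266 in Early cells), Dapl1 (0.176 in Advanced and 0.309 in Early cells), Ly6c2, a surface marker of memory CD8 T cells (0.197 in Advanced and 0.131 in Early cells), and Socs3, the inhibitor of cytokine signalling (0.141 in Advanced and 0.0973 in Early cells), with Klhdc1, Gm2682, Rflnb, Tcp11l2 and Slfn1. The non-cycling cells of the Advanced library were 52.2% CD8 cells and the cycling cells 12.7%. Over 15 alternative settings, among them non-cycling cells weighted to the mix of states of the cycling cells, the 12 leading lower genes stayed lower. Their highest Advanced ratio was 0.474, for Ly6c2, and their highest Early ratio 0.793, for Dapl1. The part of the mix of states in these ratios was not tested.

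The genes of T cell identity were closer to 1. Cd3e had ratios of 0.714 in Advanced and 0.735 in Early cells, Cd3g of 0.953 in Advanced and 0.626 in Early cells, and Cd3d of 0.476 in Advanced and 0.604 in Early cells. Cd8a had ratios of 0.471 in Advanced and 0.382 in Early cells and Cd8b1 of 0.338 in Advanced and 0.391 in Early cells. Foxp3 had a ratio of 1.16 in the Advanced and 0.437 in the Early library and Cd4 of 1.32 in Advanced and 0.380 in Early cells, and of the regulatory T cell list 3 of 13 were higher and 1 lower in the Advanced library, against 1 of 14 higher and 6 lower in the Early library. Il2ra, at 2.13 in the Advanced and 0.536 in the Early library, was on either side of 1, and with non-cycling cells weighted to the mix of states of the cycling cells its Advanced ratio was 0.651.

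Of the T cell precursor list, 10 of 23 genes were higher and 4 lower in the Advanced library, and 6 of 21 higher and 5 lower in the Early library. Dntt was at 371 against 47.5 CPM in the Advanced library, a ratio of 7.82 (7.07 to 8.65), and at 197 against 42.4 CPM in the Early library, a ratio of 4.65 (3.53 to 6.21). With the precursors left out its Advanced ratio was 0.692, and with non-cycling cells weighted to the mix of states of the cycling cells its Early ratio was 0.685. Dntt UMIs help to define the precursor state, so both settings lower its ratio by construction. Mns1 had ratios of 11.03 in Advanced and 6.74 in Early cells, the transcription factor gene Myb 5.00 in Advanced and 2.59 in Early cells, Arpp21 5.01 in Advanced and 2.63 in Early cells, and Hes1 4.87 in Advanced and 2.61 in Early cells. Rag1 had ratios of 1.41 in the Advanced and 0.994 in the Early library, and within Advanced precursors its ratio of cycling over non-cycling cells was 0.180. Rag1 UMIs also help to define that state. In the same cells Cd8b1 had a ratio of 0.275 and Cd4 of 0.310, Dntt of 1.05 and Il2ra of 0.976, while the S phase genes Pcna and Tyms had ratios of 7.74 and 24.0.

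Metabolic genes were higher to a smaller extent. Of the glycolysis list 8 of 14 were higher in the Advanced and 5 of 13 in the Early library and none was lower, with Gapdh at 3.74 in Advanced and 2.77 in Early cells and Ldha, which makes lactate, at 2.92 in Advanced and 2.70 in Early cells. Of the oxidative phosphorylation list 8 of 27 in Advanced and 6 of 27 in Early cells were higher, and of the Myc and ribosome biogenesis list 11 of 20 in Advanced and 7 of 20 in Early cells. After removal of the ribosomal protein, mitochondrial and immunoglobulin genes from the totals these counts became 1 of 27 in Advanced and 4 of 27 in Early cells, and 1 of 20 in Advanced and 2 of 20 in Early cells, so of the metabolic lists only glycolysis kept its counts, at 8 of 15 in Advanced and 5 of 14 in Early cells. Myc itself had ratios of 1.03 in Advanced and 0.797 in Early cells.

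Bcl2, the survival factor of resting lymphocytes, had ratios of 0.272 in Advanced and 0.175 in Early cells. Of the genes that respond to tissue digestion and handling, 4 of 12 in the Advanced and 7 of 11 in the Early library were past 2-fold lower in cycling cells, with Junb at 0.327 in Advanced and 0.269 in Early cells, and the chaperone gene Hsp90aa1 was the one on the higher side, at 3.79 in Advanced and 3.33 in Early cells.

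For phase, the UMIs of the S phase list were set against those of the G2/M list in each cell after thinning to 4000 UMIs, with the rule genes left out. Cycling cells held a median of 17 S list and 44 G2/M list UMIs in the Advanced library and of 19 and 50 in the Early library, against 2 S list UMIs in the non-cycling cells of each library and 5 (Advanced) and 6 (Early) G2/M list UMIs. The S list was the larger in 18 of 77 Advanced (23.4%, 14.5 to 34.4%) and 5 of 45 Early cycling cells (11.1%, 3.71 to 24.1%), and in 14.6% (Advanced) and 14.7% (Early) of cycling B lineage cells. The draw used lay near the top of the Advanced range and at the bottom of the Early range over 20 draws. The gap between the stages thus depends on the draw. The order of the stages was kept without thinning but reversed under another phase call, as the values below give. Over 20 draws of the thinning the number ranged from 12 to 19 of 77 Advanced cells, with a median of 15, and from 5 to 11 of 45 Early cells, with a median of 8, and without thinning it was 18 of 79 (Advanced) and 7 of 45 (Early). The phase call of the scanpy package, which scales each list against control genes, gave S phase to 33 of 78 called Advanced cells (42.3%) and 22 of 43 called Early cells (51.2%). It also gave S phase to 227 and G2/M to 102 of the 1160 non-cycling Advanced cells, so phase calls alone were not read as cycling.

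Precursors held more S-leaning cells than the Foxp3 positive and CD8 cells did. The S list was the larger in 12 of 32 Advanced and 3 of 14 Early precursors, against 1 of 17 Advanced and 0 of 16 Early Foxp3 positive cells, and over the 20 draws in 8 to 12 of the 32 Advanced and 3 to 7 of the 14 Early precursors, against 0 to 3 of the 17 Advanced and 0 to 4 of the 16 Early Foxp3 positive cells. In CD8 cells it was the larger in 1 of 10 Advanced and 0 of 5 Early cells. The other states did not all lie below the precursors: it was the larger in 2 of 9 Advanced and 1 of 4 Early CD4 cells, in 2 of 4 Advanced and 0 of 1 Early cells with both coreceptors, and in 0 of 5 Advanced and 1 of 5 Early cells with neither.

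**Figure D5:**
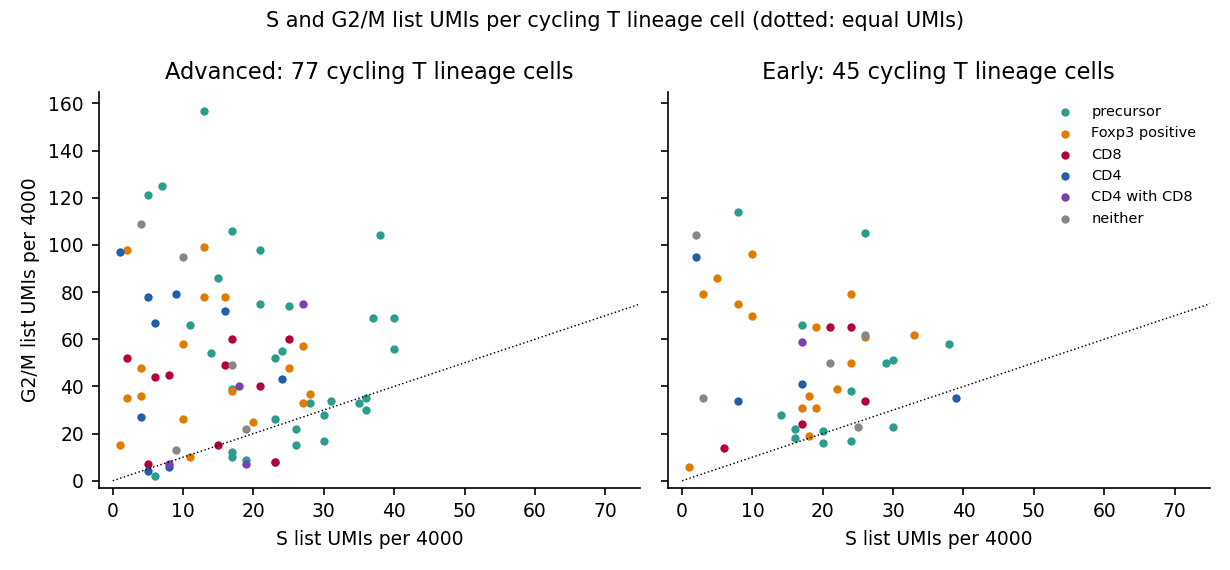
S phase list UMIs (x axis) against G2/M phase list UMIs (y axis) per cycling T lineage cell thinned to 4000 UMIs, Advanced on the left and Early on the right, coloured by state, with a dotted line at equal UMIs. Most cells lie above the line, and 18 of 77 Advanced and 5 of 45 Early cells lie below it.

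Between the stages, cycling T cells differed in few genes, and in almost none of the cycle. Of 5496 genes measured, 161 (2.93%) were past 2-fold higher and 28 (0.509%) past 2-fold lower in Advanced than in Early cycling cells, and after removal of the ribosomal protein, mitochondrial and immunoglobulin genes from the totals 250 were higher and 55 lower. Of the S phase list 0 of 42, of the G2/M list 0 of 46 and of the histone list 0 of 20 were past 2-fold in either direction, with median log2 ratios of −0.21 and 0.23 for the first and second list against 0.03 over all genes. Of the rule genes, Mki67 had a ratio of 1.54 (1.40 to 1.69) and Pclaf of 0.790 (0.734 to 0.850). Of oxidative phosphorylation 0 of 27 were past 2-fold.

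Genes of other cell types led the higher side. The 10 leading genes were the surrogate light chain genes Vpreb1 and Vpreb3 of B cell precursors, the adaptor genes Fcer1g and Tyrobp of NK and myeloid cells, the myeloid genes Lyz2, Plbd1 and S100a8, the chemokine gene Ccl5, the cyclin gene Ccnd1 and the carbonic anhydrase gene Car2. Vpreb1 had 117 UMIs in 9 Advanced cells, 76.9% of them in 1 cell, against 0 in Early cells, and S100a8 109 UMIs, 89.0% of them in 1 cell, against 0. Fcer1g had 214 UMIs in 24 Advanced cells against 2 UMIs in Early cells, a ratio of 64.7 (17.7 to 538), and Lyz2 165 UMIs, 45.5% of them in 1 cell, against 4. Of the lists of other lineages, 3 of 3 measured NK genes, 3 of 6 myeloid genes, 3 of 5 plasmacytoid genes, 2 of 6 B cell precursor genes and 3 of 14 B cell genes were past 2-fold higher in Advanced cells and none was lower, and no erythroid gene was measurable.

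With the cells that held UMIs of another lineage left out, 1 of the 10 leading genes still met the whole size rule, Ccl5, with 375 UMIs in Advanced against 29 in Early cells and a ratio of 8.48 (5.81 to 12.8). The other 9 fell below the minimum level or share of cells. Several of them kept a large ratio: Tyrobp was at 36 UMIs in Advanced against 1 in Early cells (23.6, 3.98 to 958), Ccnd1 at 44 against 1 (28.9, 4.92 to 1165), Lyz2 at 15 against 2 (4.92, 1.14 to 44.3), Fcer1g at 21 against 0 (at least 4.59) and Plbd1 at 13 against 0 (at least 2.84). Vpreb1, S100a8 and Vpreb3 were at 6, 6 and 7 UMIs in Advanced cells against 0 in Early cells, and Car2 was at 3 UMIs in each, a ratio of 0.656. Of the lists, 0 of 3 myeloid and 5 of 8 B cell genes were then past 2-fold higher. So were 1 of 1 NK, 2 of 3 plasmacytoid and 1 of 2 B cell precursor genes. Of the 161 higher genes 93 were again past 2-fold without those cells. The fold of Ccl5 itself was 9.49 (6.83 to 13.5) with all cells, from 596 UMIs in 34 Advanced cells against 38 UMIs in 8 Early cells. In each library 1 cell held a large part of them, 31.7% in the Advanced and 55.3% in the Early library. Without the top cell of each library the ratio of Ccl5 was 14.5. Other genes of the cytotoxic list that were past 2-fold higher were Ly6c2, at 4.04, Klrd1, at 3.57, Klrk1, at 4.69, and Gzma, at 2.57, 5 of 8 with Ccl5, and without the cells of other lineages the count was 4 of 6.

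Of the T cell precursor list 4 of 23 were higher, Rag1, at 40.2 against 18.0 CPM and a ratio of 2.24 (1.48 to 3.47), Hes1, at 2.58, Cd24a, a surface glycoprotein of immature lymphocytes, at 3.09, and Ccr9, the chemokine receptor of thymocytes, at 4.01. Without the cells of other lineages 7 of 24 were higher and the ratio of Rag1 was 3.75. The Rag1 UMIs were concentrated in few Advanced cells. The highest counts were 22, 21, 19 and 15 UMIs, each in 1 precursor with CD4 and CD8 UMIs, and the next highest was 5 UMIs. In the Early library the highest count was 8 UMIs. Dntt, at 371 against 197 CPM, had a ratio of 1.89 (1.66 to 2.14). Precursors were 40.5% of Advanced and 31.1% of Early cycling cells, and a larger share of precursors and more of these mRNAs per precursor cannot be told apart by the summed level. Genes of the handling response were also higher, 5 of 11, with Fos at 3.19, Jun at 2.65 and Dusp1 at 2.45, and without the cells of other lineages the count was 2 of 10. Cdkn1a had 75 UMIs in 22 Advanced cells against 16 UMIs in 10 Early cells, a ratio of 2.84 (1.64 to 5.21) that was 0.695 when cells above 3 times the median UMIs were left out.

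Several of the genes lower in Advanced cells rested on few Early cells. The 10 leading ones were Ccr10, at 11 UMIs in 4 Advanced against 41 UMIs in 6 Early cells, Anxa1, at 47 against 90 UMIs and a ratio of 0.316 (0.217 to 0.454), Gmcl1, Nrgn, Cxcl10, Wnt10a, Penk, Pdcd1lg2, Ctla2a and Ttc39c. In the Early library 1 cell held 76.3% of the Gmcl1, 56.3% of the Nrgn and 87.0% of the Cxcl10 UMIs, and with the cell of the highest count left out of each library, gene by gene, Gmcl1 and Cxcl10 were at 1.28 and 2.30. Ccr10, Gmcl1, Nrgn, Cxcl10 and Ctla2a also turned direction when cells above 3 times the median UMIs were left out. Of these 10 genes Anxa1, Nrgn, Penk and Ttc39c stayed past 2-fold without the top cell, and Ccr10, Wnt10a and Pdcd1lg2, at 0.108, 0.320 and 0.334, fell below the minimum level or share of cells. Gzmb, the main granzyme of killer cells, was at 11 UMIs in Advanced and 62 UMIs in Early cells, with 56.5% of the Early UMIs in 1 cell. Of the regulatory T cell list 2 of 13 genes were lower, the costimulatory receptor gene Tnfrsf9, at 0.491, and the integrin gene Itgae, at 0.472. No gene of this list was lower without the top cell, without the precursors or without the cells of other lineages, and in the last setting 1 of 13 was higher. Foxp3 was at 0.879 (0.649 to 1.20).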

How the data were processed

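Popliteal lymph node cells of TNF-Tg mice, 1 pooled library per stage, were deposited as UMI count matrices made by the authors with Cell Ranger on mm10 (3.1.0 in the submitters' processing notes, 6.0.1 in the matrix header); Seurat 4.0.3 is also listed there. The deposited counts are not normalized, with 83148059 (Advanced) and 67610110 (Early) UMIs. Members and gene lists were chosen with earlier results of these data known.

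UMIs were summed per library and gate with Python 3.11.15, numpy 2.4.6, scipy 1.17.1 and pandas 2.3.3, and scaled to CPM. Intervals were 95% Clopper-Pearson for shares, exact Poisson and exact conditional for UMI sums and their ratios, and log-normal for ratios of shares. PCR and sampling of mice are outside them. Those of UMI sums take UMIs as independent, so the spread between cells is outside them too. No test was run. Scanpy 1.11.5 gave the second phase call. Thinning drew 4000 UMIs per cell without replacement, leaving out 2 shallower Advanced cycling cells and 67 Advanced and 8 Early non-cycling cells. Named genes were, of those past 2-fold in both libraries, the 12 higher and 12 lower whose Advanced interval was farthest from 1, for the stages the 10 higher and 10 lower likewise, with immunoglobulin, haemoglobin, mitochondrial, Xist and rule genes set aside, as well as fixed state and cycle genes and up to 6 members of each list; gene counts of a state, Trdc in cells with neither coreceptor and within-state values were chosen after they were seen. Gene sums and intervals were tested on simulated data in which the cells of a group shared 1 profile. Spread between cells was thus not covered by that check. Alternatives covered the gates, depth, doublet-like cells, scaling, level minimum, top cell and state weights. One gene of the lists is not reported here.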

Additional observations from a re-analysis of the deposited data

How the results depend on the processing

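With 21 alternatives, the cycling share, its ratio between the stages and the counts of genes mostly kept their direction: of the main results 96 values were close to the reported ones and 24 moved, and of single genes and lists 1480 were close, 283 moved and 15 reversed. Giving the Advanced library the Early mix of states moved the ratio of cycling shares to 0.379. Thinned to 4000 UMIs, Foxp3 positive cells were 9.09% of Advanced and 15.6% of Early cycling cells, and thinned to 2000 UMIs 5.06% and 13.3%, with precursors at 22.8% and 13.3%; fewer UMIs per cell are in the construction of these. The scanpy call gave 42.3% and 51.2% S phase cells. Genes higher and lower in Advanced cycling cells numbered 387 and 158 without cells above 3 times the median UMIs, 250 and 55 with ribosomal protein, mitochondrial and immunoglobulin genes out of the totals, 40 and 6 at a minimum of 50 CPM and 912 and 194 with no minimum, and the lower ones numbered 10 without each gene's top cell and 58 without precursors. Genes past 2-fold in both libraries numbered 438 higher and 99 lower at 50 CPM, 1037 higher with no minimum, 118 lower without the deepest cells and 434 lower with the other totals. The cause of each was not tested.

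Without cells above 3 times the median UMIs, the stage ratios of Ccr10, Gmcl1, Nrgn, Cxcl10, Ctla2a and Cdkn1a were 4.76, 1.00, 5.51, 6.55, 1.42 and 0.695. Without each gene's top cell Gmcl1 was at 1.28 and Cxcl10 at 2.30, with cells weighted equally Cxcl10 was at 1.15, without precursors Gmcl1 was at 1.25, and without cells of other lineages Car2 was at 0.656. In cycling over non-cycling cells, Dntt was at 0.692 in the Advanced library without precursors, and with non-cycling cells weighted to the mix of states of the cycling cells Il2ra was at 0.651 and Cdkn1a at 0.999 in the Advanced and Dntt at 0.685 in the Early library. The settings on cells of other lineages and on the Early mix of states were added after seeing the data. With 79 and 45 cells, depth limits each gene of low level. No paired analysis was possible because each stage had 1 library.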
